A study of Rattus norvegicus with 48 samples.

Results

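The genes of the ionotropic receptors for glutamate and GABA, the transmitter-gated ion channels of fast synaptic transmission, were followed by RNA-seq in rat primary cortical cultures, in 48 libraries. The members were taken by gene symbol. They are 18 subunits of the AMPA, NMDA, kainate and delta glutamate receptors and 19 subunits of the GABA-A receptor, rho subunits included, 37 genes of 30211 in the deposited table. Cultures were prepared from the cortex of Sprague-Dawley rat fetuses of 18 days and treated after 21 days in culture. Control cultures received nothing. The other 15 groups received cocaine (25 µM for 24 h), recombinant HIV-1 Tat (6 ng/mL of a form of 86 amino acids, for 48 h), both (Tat-Cocaine), or one of 4 compounds for 48 h, each given by itself, beside Tat, or beside Tat-Cocaine. The compounds were 4OI (250 µM), Amlexanox (25 µM), Tazemetostat (3 µM) and Senicapoc (1 µM). The paper diluted 4OI from a stock in the solvent DMSO and describes no culture given solvent alone. Solvent and 4OI thus cannot be told apart. In the paper Tat, with or without 4OI, was given for 48 h before cocaine for a further 24 h. Each of the 16 groups had 3 libraries. Nothing in the labels says that the 3 came from separate cell preparations, so that p-values measure the spread between these libraries.

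Both receptor families carry fast transmission. AMPA and kainate receptors open on binding of glutamate, NMDA receptors also need glycine or D-serine and relief from magnesium block and are known for calcium entry, and the delta receptors act mainly as synaptic organizers. GABA-A receptors are chloride channels of 5 subunits, usually alpha and beta with a gamma or delta subunit. The gamma subunits place the channel at synapses, and receptors with a delta subunit lie outside them and give tonic inhibition. Each family is assembled from subunits that differ between brain regions and change during maturation.

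The labels call the cells neurons, but the cultures were mixed. Markers of neurons, astrocytes, microglia and the oligodendrocyte lineage were present in every group, and 0 of the 16 neuron markers and 0 of the 11 microglia and macrophage markers were at 0 in all 3 libraries of any group. Values are CPM (reads per 1e+06 reads, after TMM scaling), and differences are on the log2(CPM + 0.5) scale, which understates changes of genes near 0.5 CPM. A library held 17.5 to 29.1 (median 22.4) times 1e+06 reads, and 0.5 CPM stood for 8.58 to 14.96 reads. Of the 37 members, 33 had a mean of at least 0.5 CPM and enter the counts below. The 4 below it were Gabra6, Gabrp, Gabrr1 and Gabrr3, with means of 0.0375, 0.143, 0.270 and 0.137 CPM. Gabre, Gabrq and Gabrr2 had only 3 to 46, 1 to 73 and 7 to 59 reads per library, so that a single library says little about them.

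Of the 33 members, 3 responded to Tat in a way that set them apart in the results below, and their promoters are shown for that reason. Gabrr2 encodes rho2, one of the rho subunits, which are best known from the retina. Gabre encodes the epsilon subunit, and Gabrg1 the gamma1 subunit, which glial cells are also known to carry. The sequences are the 250 bases before the start of the gene in RefSeq on GRCr8, a build other than the one the reads were mapped to, and read in the direction of the gene. Capitals mark GC boxes, the letters GGGCGG on either strand.
Gabrr2, chr5:52248228-52248477, plus strand: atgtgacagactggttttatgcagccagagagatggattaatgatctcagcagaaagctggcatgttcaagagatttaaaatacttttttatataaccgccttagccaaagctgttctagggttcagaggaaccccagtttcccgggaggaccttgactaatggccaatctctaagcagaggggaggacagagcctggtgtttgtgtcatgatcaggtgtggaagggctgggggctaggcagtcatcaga
Gabre, chrX:155120722-155120971, minus strand: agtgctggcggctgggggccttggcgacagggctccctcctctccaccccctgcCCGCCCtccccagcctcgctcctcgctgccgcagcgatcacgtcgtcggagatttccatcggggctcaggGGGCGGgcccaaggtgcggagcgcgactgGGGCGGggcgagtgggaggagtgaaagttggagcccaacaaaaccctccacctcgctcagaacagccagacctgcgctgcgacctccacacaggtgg
Gabrg1, chr14:37750042-37750291, plus strand: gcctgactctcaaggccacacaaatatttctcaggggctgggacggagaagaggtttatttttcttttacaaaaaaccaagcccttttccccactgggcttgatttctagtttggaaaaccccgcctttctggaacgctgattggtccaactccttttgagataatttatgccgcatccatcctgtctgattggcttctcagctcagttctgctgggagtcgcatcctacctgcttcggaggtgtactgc
The Gabre window held 3 GC boxes, 20 CpG and 69.6% G and C. The Gabrr2 window held 0 GC boxes, 2 CpG and 47.6% G and C, and the Gabrg1 window 0, 6 and 48.4%. A GC box was present in 8 of the 24 member promoters in the RefSeq set (33.3%) and in 30.5% of all 33469, a similar share. The core of the antioxidant response element, TGACNNNGC on either strand, was found in the promoter of Gabrq alone among the 24, against 10.1% of all promoters.

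In Control cultures the AMPA subunits had means of 108 ± 14 (SD, n = 3) CPM for Gria1, 232 ± 42 for Gria2, 80.0 ± 15.3 for Gria3 and 148 ± 31.2 for Gria4. Gria2 encodes the subunit whose edited form keeps AMPA receptors closed to calcium. Of the NMDA subunits, the obligatory Grin1 had 178 ± 38.1 CPM, Grin2a 15.3 ± 2.14, Grin2b 18.0 ± 5.28, Grin2c 8.20 ± 1.38, Grin2d 8.26 ± 2.76, Grin3a 9.62 ± 3.25 and Grin3b 6.44 ± 2.66. The Grin2 genes encode the glutamate-binding subunits, of which GluN2B marks immature and GluN2A mature synapses. The kainate subunits had 6.73 ± 2.80 (Grik1), 27.9 ± 4.83 (Grik2), 20.7 ± 1.45 (Grik3), 24.7 ± 1.99 (Grik4) and 115 ± 18.3 CPM (Grik5). The delta receptor Grid1 had 22.9 ± 1.77 CPM. These values are not per length of transcript and set no order between genes.

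Of the GABA-A alpha subunits, the values were 47.7 ± 14.1 (Gabra2), 23.1 ± 7.19 (Gabra3), 39 ± 9.02 (Gabra4) and 77.8 ± 32.4 CPM (Gabra5) in Control cultures. Of the beta subunits, which contribute to the GABA site, Gabrb1 had 14.6 ± 4.90 and Gabrb2 26.1 ± 7.44 CPM. Of the gamma subunits, Gabrg1 had 37.7 ± 6.39 and Gabrg3 3.50 ± 0.727 CPM. Gabrd stood at 15 ± 3.99 CPM, Gabre at 0.386 ± 0.0978, Gabrq (theta) at 0.869 ± 0.598 and Gabrr2 at 0.411 ± 0.116. Over the 16 groups, the lowest mean was that of Tat-Cocaine-Tazemetostat for 27 of the 33 members, and the highest that of Amlexanox for 17 and of Senicapoc for 7. The span from lowest to highest group mean went from 1.53-fold for Grik4 to 7.68-fold for Gabra5.

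**Figure D1:**
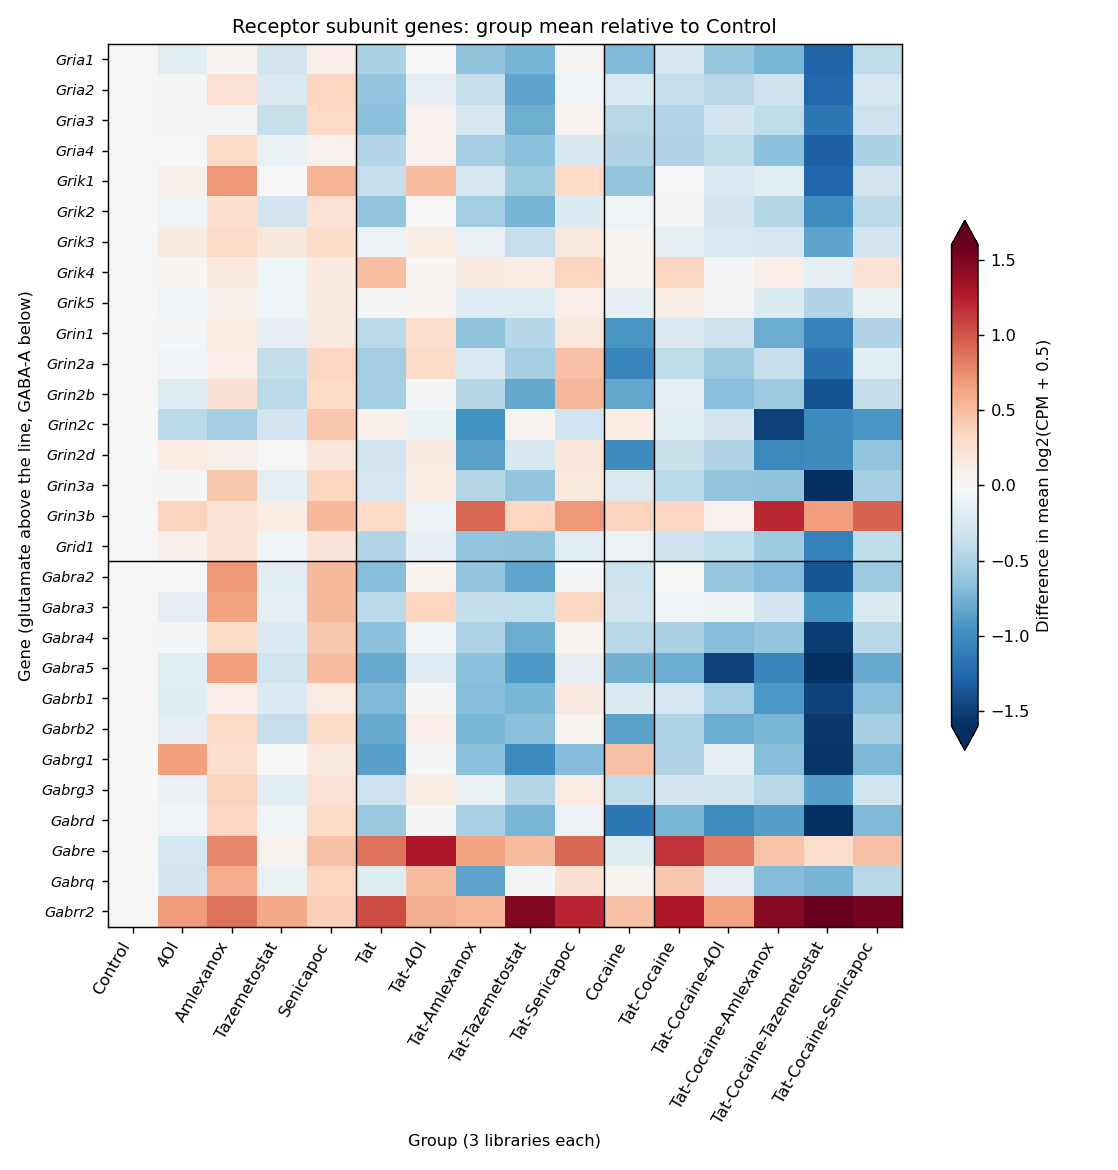
Group means of log2(CPM + 0.5) relative to Control for 29 receptor subunit genes (rows) in 16 groups of 3 libraries (columns), red higher and blue lower. The column of Tat-Cocaine-Tazemetostat is the lowest for 23 of the 29 in CPM, while Gabrr2 is above Control in all 15 other groups and Gabre in 13 of them.

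Most members rose and fell together from library to library, in step with neuron markers. The neuron marker level is the mean log2(CPM + 0.5) of 16 markers (Map2, Rbfox3, Snap25 and others), none of them a member. Taken as deviations from the group mean, so that treatment did not enter, the correlation with it was at least 0.9 for 17 members, between 0.5 and 0.9 for 9 and under 0.5 for 7 (n = 48 libraries, 33 relations). For Gabra4 Pearson's r was 0.97 and Spearman's rho 0.95 (permutation p = 1e-05 for each, the smallest that 100000 resamples can give, FDR 1.4e-05). Without Cocaine 1 and Tat-Tazemetostat 2, the libraries farthest from the median, r was 0.96. Over the 33 relations, 30 had a permutation FDR under 0.05 for r and as many for rho. The 7 members with the loosest relation were Gabrr2 (r = -0.25), Grin2c (0.01), Grin3b (0.03), Gabre (0.34), Grik3 (0.46), Gabrq (0.48) and Grik4 (0.49). For Gabrr2, rho was -0.25, the permutation p 0.16 and the FDR 0.17, each for r and for rho, and r was -0.20 without the 2 farthest libraries.

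The level of neuron markers differed between libraries of the same treatment. Their summed CPM was 4455, 1900 and 1684 in the 3 Cocaine libraries, and 2440, 1488 and 3433 in the 3 Tat-Tazemetostat libraries. Cocaine 3 also stood apart by a summed CPM of oligodendrocyte lineage markers of 25922, against 2129 and 1704 in its group mates. The mean correlation with group mates was lowest (0.965 to 0.973) in 5 libraries, namely Cocaine 1, 2 and 3, Tat-Tazemetostat 2 and Tat-Cocaine-4OI 2, and counts were made with and without them. In RNA from whole cultures fewer neurons and less RNA per neuron cannot be told apart.

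**Figure D2:**
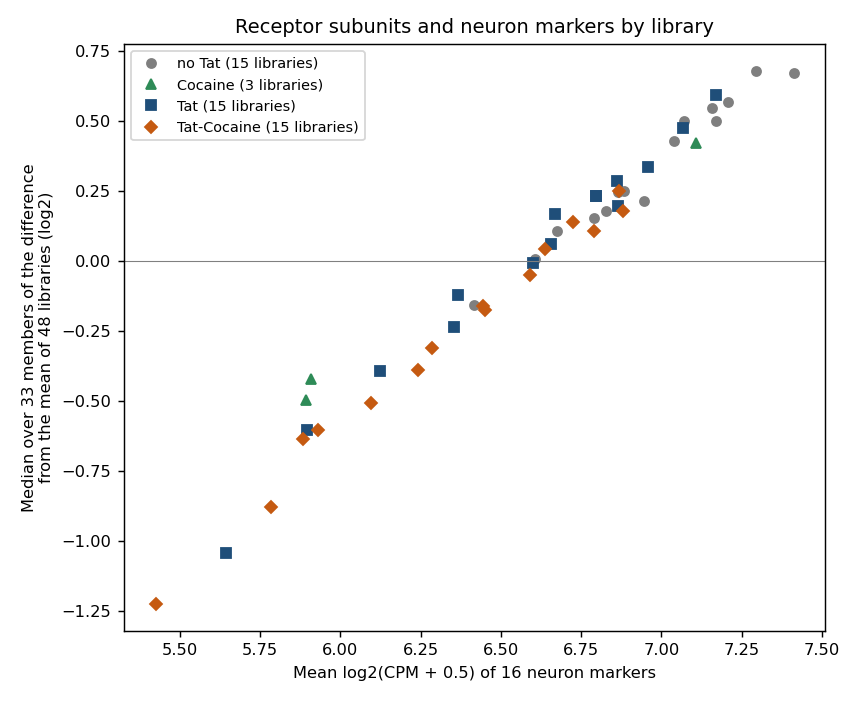
Each of the 48 libraries by its neuron marker level (x axis, mean log2(CPM + 0.5) of 16 markers) and by the median difference of the 33 members from their mean over all libraries (y axis, log2). Libraries with and without Tat or cocaine lie along the same line, with Tat-Tazemetostat 2 at -1.04 among the lowest on both axes.

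To ask what Tat did to these genes, cultures with Tat were compared with cultures without it over 5 backgrounds (nothing, 4OI, Amlexanox, Tazemetostat and Senicapoc), 15 libraries against 15. Of the 33 members, 17 fell and 2 rose. The 17 are 51.5% of the members, where 26.7% of the 15890 genes tested fell. The 2 are 6.06%, where 29.9% of all genes rose. GABA-A subunits made up 10 of the 17 and both that rose, Gabre and Gabrr2. The median difference was -0.31 over the members, -0.43 over the 15 GABA-A and -0.27 over the 18 glutamate receptor subunits, with -0.003 over all genes. Calls are from limma with a Benjamini-Hochberg FDR under 0.05 over all genes tested.

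Of the GABA-A genes, alpha, beta and gamma subunits fell, as did Gabrd. Gabrg1 was 30.8 to 68.1 CPM without Tat (median 43.5) and 10.7 to 46 with it (median 23.6). It was lower in 5 of 5 backgrounds, by -0.87 ± 0.13 on the log2 scale (SE, limma FDR 1.3e-06), although the ranges overlapped. Gabra5, the alpha subunit of extrasynaptic receptors known from hippocampus, was 45.4 to 159 CPM without Tat (median 87.0) and 19.8 to 90.9 with it (median 55.2), a difference of -0.68 ± 0.21 (limma FDR 0.00624). It was lower in 5 of 5 backgrounds, with overlapping ranges. Gabra2, common in fetal brain and at the axon initial segment, was 34.6 to 94.4 CPM without and 15.3 to 56.4 with Tat, and differed by -0.63 ± 0.14 (limma FDR 0.000226, lower in 4 of 5).

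Gabrd, of the tonic receptors, was 11.2 to 20.1 CPM without and 4.38 to 17 with Tat and fell by 0.50 on the log2 scale (SE 0.15, limma FDR 0.00609). Gabra4, its frequent partner, was 28.4 to 54.2 and 12.4 to 47.4 CPM, and fell by 0.48 (SE 0.15, limma FDR 0.00834, lower in 5 of 5). Beta subunits that fell included Gabrb2 (-0.43) and Gabrb1 (-0.36). Gabra3 (-0.28, limma FDR 0.097), Gabrg3 (-0.19) and Gabrq (-0.17) did not pass. The calls of both beta genes named depended on single libraries. Gabrb2 missed the threshold without any one of Control 1, Amlexanox 3, Tazemetostat 1, Senicapoc 2, Tat 2, Tat-Amlexanox 1, Tat-Tazemetostat 2, Tat-4OI 2 or Tat-Senicapoc 2 (-0.40 to -0.34), and Gabrb1 without Tat-Tazemetostat 2 (-0.30).

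Of the glutamate receptor genes, 3 of 4 AMPA, 2 of 5 kainate and 1 of 7 NMDA subunits fell, as did the delta receptor Grid1. Grid1, a partner of cerebellins at synapses, was 20.8 to 29.3 CPM without Tat (median 24.6) and 8.82 to 24.0 with it (median 17.5), a difference of -0.50 ± 0.091 (limma FDR 2.24e-05). Gria2 was 184 to 311 CPM without Tat (median 247) and 72.6 to 259 with it (median 186), a difference of -0.48 ± 0.13 (limma FDR 0.00199). Both were lower in 5 of 5 backgrounds. The other members that fell were the kainate subunits Grik2 (-0.45) and Grik3 (-0.25), the AMPA subunits Gria4 (-0.43) and Gria1 (-0.31) and the NMDA subunit Grin3a (-0.33), which makes NMDA receptors less permeable to calcium.

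The main NMDA subunits did not pass. Grin1 was 129 to 230 CPM without Tat and 84.7 to 218 with it, a difference of -0.23 ± 0.12 (limma FDR 0.109). Grin2a differed by -0.11 ± 0.16 (limma FDR 0.565) and Grin2b by -0.25 ± 0.16 (limma FDR 0.191). These values do not show that NMDA subunits stayed level. Calls at the edge moved with single libraries. Gria1 missed the threshold without Tat 2 (-0.26), Tat-Amlexanox 1 (-0.27) or Tat-Tazemetostat 2 (-0.25), and Grin3a without Control 1 (-0.29) or Tat-Tazemetostat 2 (-0.25), whereas Grin1 passed without Tat-Tazemetostat 3 (-0.28).

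Neuron markers were lower with Tat as well, in a comparison where 26.7% of all genes fell and 29.9% rose. Of the 16, 11 fell and 0 rose (median -0.38), and their summed CPM was 1488 to 4424 with Tat (median 3088) and 2703 to 5297 without (median 3879). The backgrounds differed. Group means of the sum without and with Tat were 3728 and 2613 in untreated cultures and 4454 and 2571 beside Amlexanox. They were 3186 and 2454 beside Tazemetostat and 4617 and 3919 beside Senicapoc. Beside 4OI they were 3625 and 3852, so that no fall was seen there. Of 10 astrocyte markers 5 fell and 2 rose, of 11 microglia and macrophage markers 5 rose and 1 fell, and of 10 oligodendrocyte lineage markers 0 passed. With the neuron marker level as a covariate, an alternative chosen after the data had been seen, 3 members were lower and 7 higher with Tat, and the median was 0.02. In that model 17.7% of all genes were lower and 24.1% higher. Those lower were Gabra2 (-0.22, limma FDR 0.000159), Gabrg1 (-0.64, limma FDR 7.84e-05) and Grid1 (-0.28, limma FDR 0.000681). The 7 higher were Gabre (0.75), Gabrr2 (0.40), Grin2a (0.33), Grik4 (0.29), Grin2b (0.23), Grin1 (0.13) and Grik5 (0.11). The marker level itself moved with Tat, and its part in the falls was not tested beyond this model.

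**Figure D3:**
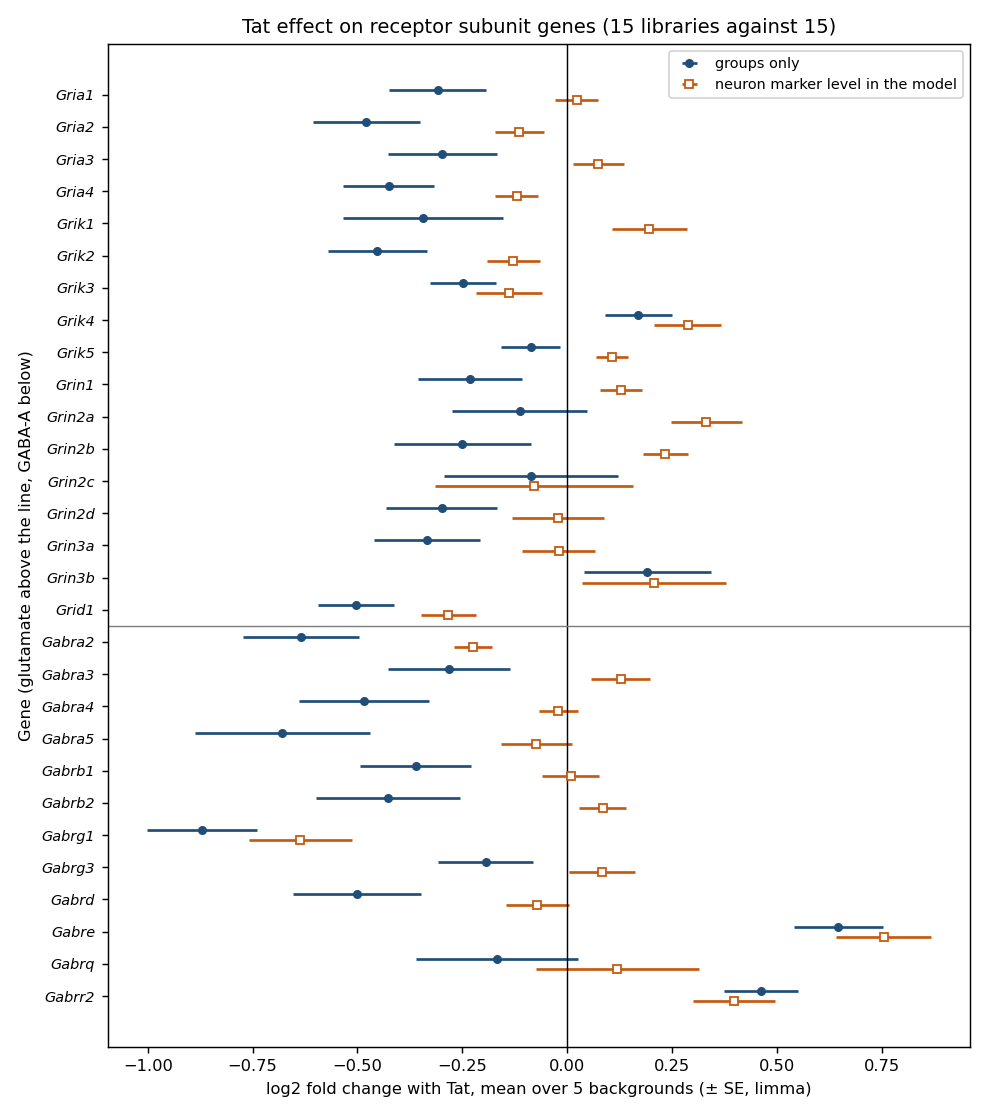
Log2 fold change with Tat (x axis, limma estimate ± SE, mean over 5 backgrounds) for 29 receptor subunit genes, from the model of groups alone (filled circles) and with the neuron marker level added (open squares). Gabrg1 stays at -0.64 and Gabre at 0.75 in the second model, while the median over all 33 members moves from -0.31 to 0.02.

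The 2 genes that rose are both at the low end of the family. Gabre was 0.125 to 1.32 CPM without Tat (median 0.454) and 0.584 to 2.09 with it (median 1.04), a difference of 0.65 ± 0.11 (limma FDR 4.33e-06). In Control libraries it was 0.498, 0.343 and 0.318 CPM, and in Tat libraries 0.811, 1.29 and 1.28, with no overlap. In 4OI cultures it was 0.258, 0.302 and 0.125 CPM, and in Tat-4OI cultures 1.93, 1.13 and 2.09. Gabre was thus higher with Tat in 4 of 5 backgrounds, the exception being Amlexanox, with 0.793, 0.931 and 1.32 CPM without Tat and 0.862, 0.616 and 1.24 with it.

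Gabrr2 was 0.343 to 1.79 CPM without Tat (median 0.769) and 0.523 to 2.89 with it (median 1.28), a difference of 0.46 ± 0.088 (limma FDR 4.55e-05) that was positive in 3 of 5 backgrounds. Control libraries held 0.345, 0.343 and 0.545 CPM, and Tat libraries 1.67, 1.195 and 1.28. Tazemetostat libraries held 1.26, 0.681 and 0.780 CPM, and Tat-Tazemetostat libraries 1.92, 2.89 and 1.497. In those backgrounds the libraries with and without Tat did not overlap. In the 4OI background they did, with 0.700, 1.25 and 0.980 CPM without Tat and 0.803, 1.048 and 0.730 with it. In the Amlexanox background they did so too, with 0.793, 1.047 and 1.79 CPM without Tat and 1.00, 0.976 and 0.523 with it.

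**Figure D4:**
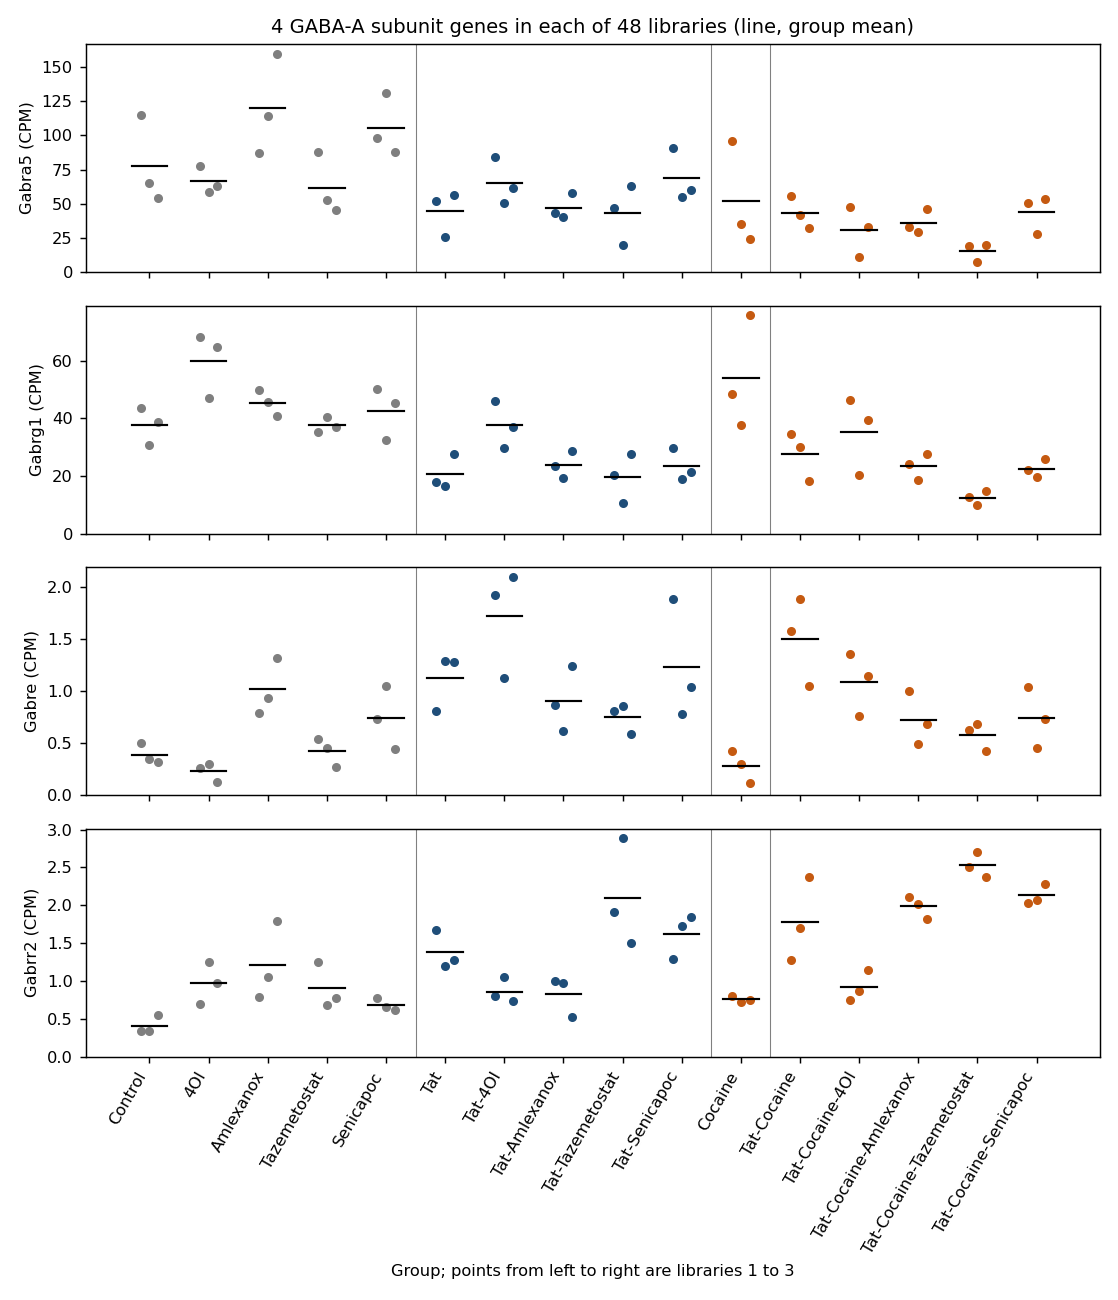
CPM of Gabra5, Gabrg1, Gabre and Gabrr2 (y axes) in each of 48 libraries, grouped by treatment (x axis), with a line at each group mean. Gabrr2 is lowest in Control (mean 0.411 CPM) and highest in Tat-Cocaine-Tazemetostat (mean 2.53), where Gabra5 is lowest (mean 15.6).

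In single backgrounds fewer members passed, with 3 libraries against 3. Against Control, Tat cultures had 3 members higher, namely Gabrr2 (1.045), Gabre (0.87) and Grik4 (0.48), and 1 lower, Gabrg1 (-0.87), where 14.6% of all genes were higher and 6.70% lower. Grik4 encodes a high-affinity kainate subunit and was 26.5, 25.0 and 22.5 CPM in Control and 30.6, 36.3 and 37.2 in Tat libraries. It missed the threshold when Tat 2, Tat 3, Control 1, Control 2 or Control 3 was left out (0.42 to 0.53), and Gabrg1 without Tat 1, Tat 2, Control 1 or Control 3 (-0.85 to -0.74). Gabrg1 was 43.5, 30.8 and 38.8 CPM in Control and 17.8, 16.6 and 27.5 in Tat libraries, without overlap. The count fell to 2 without Tat 2 or Control 1, where all genes called fell from 3382 to 1830 and 2071. In the fit to the groups compared 1 member was higher and 0 lower, with 1252 of all genes called. The balance of higher and lower moved with the setting, with 2 higher and 5 lower with array weights, 3 higher and 4 lower with the replicate block, and 3 higher and 13 lower without the 5 libraries least like their group mates. Of all genes called, 63.9%, 65.9% and 61% were higher in this order.

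In the 4OI background 1 member passed, Gabre (1.58 ± 0.24, limma FDR 4.53e-05), with 3.08% of all genes higher. In the Tazemetostat background, with 10.4% of all genes rising and 5.63% falling, Gabrr2 rose (0.87) and Gabrg1 (-1.02), Grid1 (-0.60) and Grik3 (-0.55) fell. In the Senicapoc background, with 10.8% rising and 5.15% falling, Gabrr2 rose (0.84) and Gabrg1 fell (-0.86). In the Amlexanox background 19 members fell and 0 rose, while 39.6% of all genes passed, 22.6% by rising, and neuron markers had a median of -0.79, close to that of the members (also -0.79). Library numbers paired the samples there, and with the number as a block 22 members fell and 1 rose. With the neuron marker level as covariate, 1 member was lower and 2 were higher in that background, as were 3.10% and 7.09% of all genes. The marker level itself moved with Tat there, so this model can hardly separate the 2.

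Whether Tat acted otherwise beside a compound was tested as an interaction against the Tat effect in untreated cultures. Gabrr2 passed in the 4OI background (-1.15, limma FDR 0.0447) and in the Amlexanox background (-1.38, limma FDR 0.0124), where 0.447% and 0.428% of all genes passed in the same direction, and 0 of the other 32 members did. The 2 tests share the Control and Tat libraries. For Tazemetostat and Senicapoc 0 members passed, as did 0% of all genes, and 0 members had an unadjusted p under 0.05 in limma, where 1.71% and 4.80% of all genes had one. The 4OI interaction missed the threshold on leaving out Tat 1, Tat 2, Control 1, Control 2, Control 3, 4OI 2, 4OI 3, Tat-4OI 1 or Tat-4OI 3 (-1.26 to -1.02), and the Amlexanox interaction without Control 3 (-1.49) or Amlexanox 3 (-1.15).

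Cocaine alone gave no call among the members, where 0.201% of all genes passed in limma. An unadjusted p under 0.05 in limma was seen for 10 members (30.3%) and for 12.6% of all genes. The Cocaine libraries disagreed with each other. Grin1 was 178, 66.0 and 65.8 CPM in them, against 211, 186 and 136 in Control, and Grin2a 16.8, 4.89 and 4.14 against 17.7, 13.8 and 14.3. Cocaine 1 was thus within or near the Control range and Cocaine 2 and 3 below it, as were their neuron markers. Without Cocaine 1, 10 members were lower and 0 higher, where 10.9% of all genes passed, 3.65% by being higher. That count rests on 2 libraries, 1 of them with the high oligodendrocyte marker sum. Cultures with Tat and cocaine against Control had Gabre (1.16) and Gabrr2 (1.31) higher and 0 lower, where 8.63% of all genes were higher and 6.30% lower.

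Cocaine added to Tat was compared over 5 backgrounds, Tat-Cocaine against Tat and the like with each compound, 15 libraries against 15. As cocaine followed Tat, any longer exposure to Tat or compound in these cultures cannot be told apart from cocaine itself. The 15 libraries without cocaine were also the side with Tat in the Tat comparison, so the 2 comparisons are not independent. With cocaine added to Tat 6 members fell and 1 rose, where 2.91% of all genes fell and 1.64% rose. Gabra5 was 19.8 to 90.9 CPM with Tat (median 55.2) and 7.64 to 55.7 with cocaine added (median 33.2), a difference of -0.75 ± 0.21 (limma FDR 0.0314, lower in 4 of 5). Gabrd was 4.38 to 17 (median 12.2) and 2.80 to 13 CPM (median 7.47), a difference of -0.60 ± 0.15 (limma FDR 0.02, lower in 5 of 5). Grin3a was 2.99 to 13.1 (median 8.06) and 1.83 to 8.0 CPM (median 6.33), a difference of -0.55 ± 0.13 (limma FDR 0.00957, lower in 5 of 5). All 3 had overlapping ranges.

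Grin2d, an NMDA subunit of interneurons, differed by -0.49 ± 0.13 (limma FDR 0.0268) and Grik3 by -0.30 ± 0.078 (limma FDR 0.0221), each lower in 5 of 5 backgrounds. Gabrr2 was 0.523 to 2.89 CPM with Tat (median 1.28) and 0.749 to 2.701 with cocaine added (median 2.03), higher in 5 of 5 by 0.36 ± 0.088 (limma FDR 0.0149). In each background alone 0 members passed in limma, where 0.0189% of all genes passed for Tat-Cocaine against Tat, 0.183% beside Senicapoc and 0% beside the other compounds. Neuron markers had a median of -0.22. With their level as covariate Gabra5 (-0.33), Gabrd (-0.30), Grin3a (-0.34) and Gabrr2 (0.32) still passed, Grin2d (-0.30) and Grik3 (-0.22) did not, and Grik2 (0.21) was higher, where 2.54% of all genes were higher and 2.48% lower. The count of 7 went with 723 of all genes called, and both moved together (all genes in brackets). It became 14 without Tat-Tazemetostat 2 (1381), and 3 without Tat-Tazemetostat 3 (401) or Tat-Cocaine-Amlexanox 1 (408). It became 4 without Tat-Cocaine 3 (506), Tat-Amlexanox 3 (444), Tat-Senicapoc 1 (455) or Tat-Cocaine-4OI 2 (494). Gabrd, Grin3a and Gabrr2 kept their calls in each of the 30 fits without 1 library, and Gabra5 lost its call in 13 of them (-0.74 to -0.63). Grin2d lost its call in 7 (-0.47 to -0.44), namely without Tat 3, Tat-Cocaine 3, Tat-Amlexanox 3, Tat-Tazemetostat 3, Tat-Senicapoc 1, Tat-Cocaine-Amlexanox 1 or Tat-Cocaine-4OI 2, and Grik3 in 2, without Tat-Tazemetostat 3 (-0.26) or Tat-Cocaine-Amlexanox 1 (-0.27).

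Each compound was compared over 3 backgrounds (untreated, Tat and Tat-Cocaine), 9 libraries against 9, and the 4 comparisons share their controls. 4OI, an ester of itaconate that enters cells, raised 1 member, Gabrg1, where 22.8% of all genes passed, 11.8% by falling. Gabrg1 was 16.6 to 43.5 CPM without (median 30.04) and 20.3 to 68.1 with 4OI (median 45.96), a difference of 0.61 ± 0.17 (limma FDR 0.0078, higher in 3 of 3). The libraries were 68.1, 47.05 and 64.7 CPM in 4OI against 43.5, 30.8 and 38.8 in Control, and 45.96, 29.6 and 36.98 in Tat-4OI against 17.8, 16.6 and 27.5 in Tat, so that the groups did not overlap in either. In Tat-Cocaine-4OI they were 46.2, 20.3 and 39.3 against 34.6, 30.04 and 18.1 and overlapped. With 4OI the summed CPM of astrocyte markers was 9098 to 13849 (median 10984), against 7119 to 12661 without (median 9029), and that of microglia markers 511 to 1949 (median 905), against 1219 to 2913 (median 1853). Oligodendrocyte lineage markers summed to 825 to 2582 CPM with 4OI (median 1578) and 859 to 2854 without (median 1427). As deviations from the group means (n = 48 libraries, 4 relations), the level of Gabrg1 correlated with that of oligodendrocyte lineage markers at r = 0.75 (rho 0.74, permutation p = 1e-05 for each, the smallest the resamples can give, FDR 4e-05) and with that of microglia and macrophage markers at r = -0.70 (rho -0.70, permutation p = 0.00024 and 7e-05, FDR 0.00048 and 0.00014). With neuron markers r was 0.57 (rho 0.58, permutation p = 0.0089 and 0.0013, FDR 0.012 and 0.0018) and with astrocyte markers 0.30 (rho 0.23, permutation p = 0.047 and 0.18, FDR 0.047 and 0.18). Without the 2 libraries farthest from the median of each list, r was 0.70, -0.65, 0.60 and 0.25 in this order. With the neuron marker level as covariate 3 members were higher and 2 lower, where 14.1% of all genes were higher and 13.97% lower. Among them were Gabrg1 (0.55, limma FDR 0.00322) and Gria3 (0.18) as higher and Grik4 (-0.29) and Grin2b (-0.20) as lower.

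In single 4OI comparisons 1 member passed in each. Gabrr2 was higher in 4OI than in Control (0.69, limma FDR 0.0471), where 2.47% of all genes were higher, and lower in Tat-Cocaine-4OI than in Tat-Cocaine (-0.67, limma FDR 0.0338), where 3.29% were lower. Tat-Cocaine libraries held 1.28, 1.70 and 2.38 CPM of Gabrr2, and Tat-Cocaine-4OI libraries 0.749, 0.875 and 1.14, without overlap. Gabrg1 passed for Tat-4OI against Tat (0.86, limma FDR 0.0425), where 6.10% were higher.

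Amlexanox, an inhibitor of the kinases TBK1 and IKK-epsilon, lowered 1 member, the NMDA subunit Grin2c, where 3.88% of all genes fell. Grin2c, which astrocytes and cerebellar granule cells are known to express, was 3.95 to 14.5 CPM without (median 8.81) and 2.05 to 11 with Amlexanox (median 3.06), a difference of -0.97 ± 0.27 (limma FDR 0.0206, lower in 3 of 3). It varied widely within groups, with 11.02, 6.05 and 2.23 CPM in Amlexanox and 3.95, 10.9 and 14.5 in Tat libraries. Tat-Cocaine-Amlexanox libraries held 2.05, 2.92 and 2.78 CPM, below the 7.28, 12.1 and 3.99 of Tat-Cocaine. The call was lost without Tat 3 (-0.85), Tat-Cocaine 2 (-0.84), Amlexanox 3 (-0.78) or Tat-Amlexanox 1 (-0.91), and 2 members passed without Tat 1, Control 3, Tat-Cocaine 3 or Amlexanox 2. In the latter fits 1410, 1300, 1533 and 1242 of all genes were called, against 1270 with all libraries. Grin3b, a glycine-binding subunit, differed by 0.57 ± 0.20 (limma FDR 0.0671). Against Control, Amlexanox alone had Gabre (0.76) and Gabrr2 (0.87) higher, where 3.75% of all genes were higher, and with Tat or with Tat and cocaine 0 members passed (0.837% and 0.925% of all genes).

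Tazemetostat, an inhibitor of the histone methyltransferase EZH2, lowered 7 members and raised 1, where 4.65% of all genes fell and 6.75% rose. Those that fell were Grin2b (-0.66 ± 0.21, limma FDR 0.039), Gabra2 (-0.57 ± 0.18, limma FDR 0.0375), Grin3a (-0.56 ± 0.16, limma FDR 0.0276) and Gria1 (-0.52 ± 0.15, limma FDR 0.0268), with the kainate subunits Grik2 (-0.46), Grik4 (-0.30) and Grik5 (-0.28). Each was lower in 3 of 3 backgrounds. Grin2b was 7.33 to 24.0 CPM without (median 14.9) and 4.71 to 16.7 with Tazemetostat (median 11.03), with overlap. Gabrr2 rose, from 0.343 to 2.38 CPM without (median 1.28) to 0.681 to 2.89 with it (median 1.92), by 0.50 ± 0.11 (limma FDR 0.00864, higher in 3 of 3).

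These pooled values came mainly from 1 background. In Tat-Cocaine-Tazemetostat against Tat-Cocaine 24 members fell and 0 rose, where 13.4% of all genes fell and 15.2% rose, and in the other backgrounds 0 members and 0% of all genes passed. Gria1 was 101, 88.4 and 80.2 CPM in Tat-Cocaine and 44.9, 36.3 and 51.5 in Tat-Cocaine-Tazemetostat libraries, and Grin1 160, 167 and 126 and 84.9, 72.1 and 92.0, both without overlap. Neuron markers had a median of -1.03 in the same comparison, with summed CPM of 3407, 3358 and 2676 in Tat-Cocaine and 1654, 1286 and 1870 in Tat-Cocaine-Tazemetostat, and microglia marker sums were 2007, 1219 and 1853 and 3139, 4426 and 2796. With the neuron marker level as covariate 0 of the 24 passed, and 0.107% of all genes did. The marker level itself differed between these groups without overlap, so this model can hardly separate it from the treatment. Its part in the falls was not tested otherwise. The pooled count of 8 went with 1811 of all genes called, and both moved together (all genes in brackets). It was 18 without Tat-Tazemetostat 3 (3237), 14 without Tat 2 (2875) and 13 without Tat-Cocaine 3 (3182). It was 1 without Control 1 (624), Tat 3 (605), Tat-Cocaine 1 (761), Tazemetostat 3 (848), Tat-Tazemetostat 2 (412) or Tat-Cocaine-Tazemetostat 2 (703). It was 2 without Tat-Cocaine 2 (751), 3 without Tazemetostat 2 (1215), 4 without Tat 1 (1386) and 5 without Control 2 (1570) or Tat-Cocaine-Tazemetostat 1 (1291). Only Gabrr2 passed in each of the 18 fits, from 0.43 to 0.56.

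Senicapoc, a blocker of the calcium-activated potassium channel KCa3.1, gave 0 calls among the members, where 1.16% of all genes passed in limma, and 5 members (15.2%) and 17.9% of all genes had an unadjusted p under 0.05. Members had positive values for 29 of 33 (median 0.23), as did neuron markers (median 0.24). Gria1 was 71.6 to 126 CPM with Senicapoc (median 102) and 53.9 to 124 without (median 90.7).

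**Figure D5:**
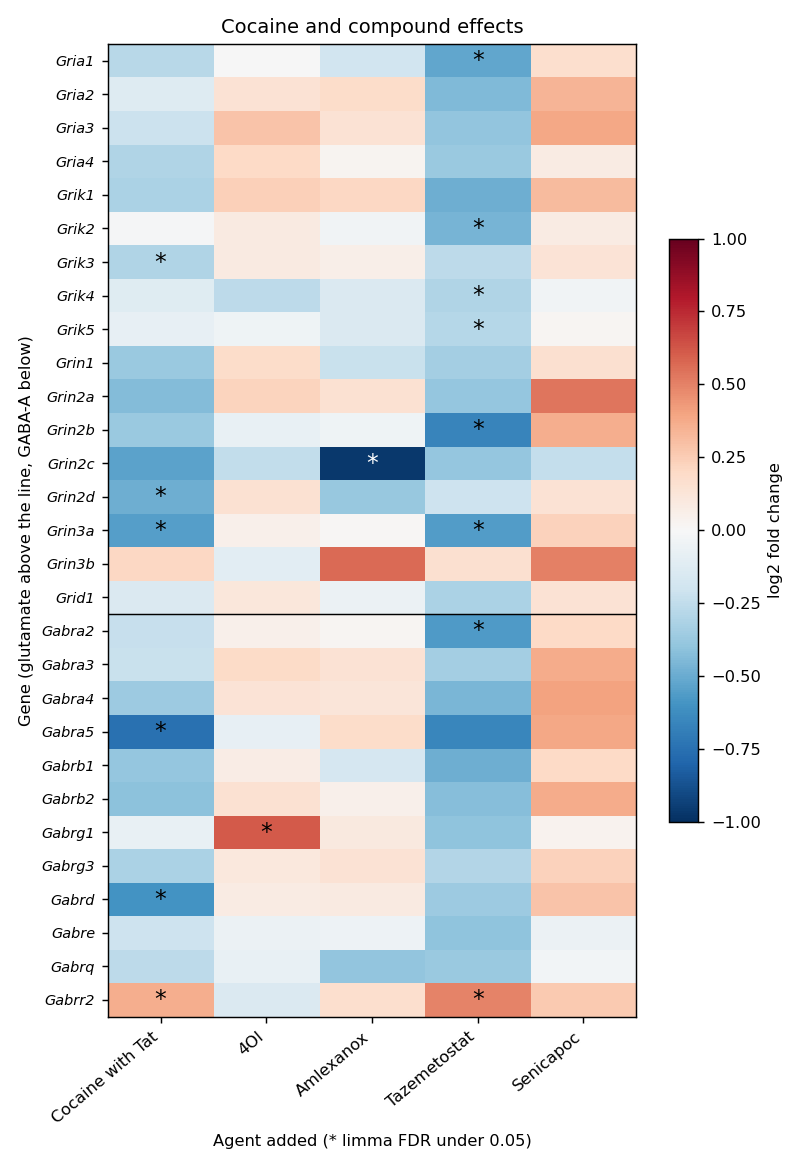
Log2 fold changes of 29 receptor subunit genes (rows) for cocaine added to Tat (15 libraries against 15) and for each compound (9 against 9, columns), red higher and blue lower, with an asterisk where the limma FDR is under 0.05. The asterisks number 6, 1, 1, 8 and 0 from left to right, and Gabrr2 rises under cocaine (0.36) and Tazemetostat (0.50) where most other members are lower.

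Ratios of subunits within a library do not depend on its scaling, and their ranges and medians are given as plain ratios of CPM. The differences tested are of log2(CPM + 0.5), which depend on scaling slightly through the added 0.5 CPM. They were tested in 6 pooled comparisons by permutation of libraries within backgrounds, two-sided. FDR is over the 18 tests made, of which 12 are on the 2 ratios described. The ratio of Grin2a to Grin2b, which grows as synapses mature, was 0.863 to 1.15 with 4OI (median 1.03) and 0.641 to 0.980 without (median 0.826), higher in 3 of 3 backgrounds by 0.29 on the log2 scale (permutation p = 0.0015, FDR 0.0135). The ratio of Gria1 to Gria2 was 0.293 to 0.473 with Amlexanox (median 0.389) and 0.443 to 0.543 without (median 0.500), lower in 3 of 3, with a difference of -0.37 (permutation p = 0.00025, the smallest these resamples can give, FDR 0.0045). The other 10 tests of these ratios did not pass. The 4 compounds share their control libraries, and each ratio differed in the same direction for all 4. Grin2a to Grin2b differed by 0.28 for Tazemetostat, 0.20 for Amlexanox and 0.17 for Senicapoc. Gria1 to Gria2 differed by -0.15 for 4OI, -0.075 for Tazemetostat and -0.18 for Senicapoc. Neither difference is thus shown to be particular to 1 compound. Some of the 10 tests passed once 1 library was left out. The ratio of Gria1 to Gria2 passed for Tat without 4OI 2, Senicapoc 2, Tat-Amlexanox 1, Tat-Tazemetostat 1 or Tat-Tazemetostat 3 (0.17 to 0.20), for cocaine added to Tat without Tat-Amlexanox 1, Tat-Cocaine-Tazemetostat 2 or Tat-Cocaine-4OI 2 (-0.18 to -0.17), and for Senicapoc without Senicapoc 2, Tat-Senicapoc 2 or Tat-Cocaine-Senicapoc 2 (-0.22 to -0.19). That of Grin2a to Grin2b passed for Tazemetostat without Tazemetostat 1 (0.34) or Tat-Tazemetostat 3 (0.31). For Tat, the ratio of Gria1 to Gria2 differed by 0.17 ± 0.069 (SE over 5 backgrounds, permutation FDR 0.054).

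The other genes of these synapses were read from lists of partner proteins, by the Tat comparison over 5 backgrounds. In that comparison 26.7% of all genes fell and 29.9% rose. Of 27 auxiliary and trafficking proteins 18 fell and 1 rose (median -0.32), among them C1ql3, a synaptic organizer (-0.87, limma FDR 0.00131), and Cnih3, an AMPA receptor cornichon (-0.73, limma FDR 0.00095). Of 21 postsynaptic scaffold genes 16 fell and 2 rose (median -0.29), with Iqsec3, of inhibitory synapses (-0.66, limma FDR 0.000742), and Camk2a, the kinase of excitatory ones (-0.64, limma FDR 0.00149). Of 10 metabotropic receptors 5 fell and 0 rose (median -0.27), with the GABA-B subunits Gabbr1 (-0.65, limma FDR 2.16e-07) and Gabbr2 (-0.41, limma FDR 0.0125). Of 2 glycine receptor genes 1 fell, Glra2 (-0.69, limma FDR 0.000175). Of 16 genes of transmitter synthesis and transport 8 fell and 1 rose (median -0.34), with the GABA transporter Slc6a11 (-0.89, limma FDR 1.14e-10) and the GABA transaminase Abat (-0.66, limma FDR 4.78e-06). The list of transmitter genes shares Slc1a2 and Slc1a3 with the astrocyte markers, so it is not a list of neuronal genes alone. The medians of these lists lay from -0.46 to -0.27, with -0.38 for the neuron markers and -0.31 for the receptor subunits.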

How the data were processed

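The authors prepared strand-specific libraries from polyadenylated RNA, trimmed the reads with Trim Galore 0.4.5, aligned them with STAR 2.7.2 and summarised unique alignments by gene in featureCounts (Subread 1.5.3), as given in the methods and the submitters' processing notes. SAMtools 1.5 is also listed. The signal the authors deposited is CPM after TMM normalization in edgeR, 1 value per gene and library, with sums per library of 930399 to 1046890. The value of 1 read was taken from the most frequent positive value. Of the values, 85.0 to 87.3% were whole reads within 0.02 read, so that no count test was run. The rat build differs between the methods (Rnor 6.0) and the notes (mRatBN 7.2), and no coordinates of the reads were used. The authors' own columns of fold changes and p-values were not used.

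The log2(CPM + 0.5) values were fitted with limma 3.58.1 under R 4.3.3 (lmFit on 16 group means over all 48 libraries, eBayes with a trend, 32 residual degrees of freedom), over the 15890 genes that reached 0.5 CPM in 3 or more libraries. FDR is Benjamini-Hochberg over these genes, and a call is an FDR under 0.05. Ratios and correlations were tested by permutation in Python 3.11.15 with numpy 2.4.6. The limma fit was tested on simulated data. Libraries of a group correlated at 0.963 to 0.996, and 0 pairs were identical. Members with a mean of at least 0.5 CPM are named with their level. Full statistics go to those called in a pooled comparison (for Tat the 10 largest), with values also for main cortical subunits, and 2 genes are named per partner list. Counts are over 33 members, of which 4 are not reported here one by one. The members and lists were chosen with earlier results of these data known. Library numbers were taken as pairing samples where all 3 same-numbered pairs correlated over 0.1 in their deviations from the group means. That held in 9 of 24 comparisons of groups (pairs from -0.779 to 0.814), of which the call counts changed with the block only for Tat-Amlexanox against Amlexanox. Alternatives were another pseudocount, filter, normalization, trend and weighting, a fit to the groups compared, the replicate block and each library left out, and, chosen after seeing the data, the neuron marker covariate and leaving out the 5 libraries least like their group mates.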

Additional observations from a re-analysis of the deposited data

Results flagged for a closer look

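The Tat effect on Gabrr2 differed between backgrounds by a test of the difference itself. It was 1.15 lower on the log2 scale with 4OI than without a compound (-1.15, limma FDR 0.0447) and 1.38 lower with Amlexanox (-1.38, limma FDR 0.0124). In untreated cultures 3 of 3 Tat libraries were above the 3 Control libraries, whereas with 4OI or Amlexanox the libraries with and without Tat overlapped. In both backgrounds Gabrr2 was also higher without Tat than in Control (0.69 and 0.87). Both differences use the same Tat and Control libraries, and Gabrr2 had 7 to 59 reads per library. The 4OI difference is lost in 9 of 12 fits without 1 library and the Amlexanox difference in 2 of 12. Under 10 other settings of the processing, the 4OI difference is lost in 6 and the Amlexanox difference in 1, and in the fit to the groups compared both are lost (limma FDR 0.143 and 0.193).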

How the results depend on the processing

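Of 40 calls of named members, 40 were kept with a pseudocount of 0.1 CPM and 40 with the replicate block, 39 with a pseudocount of 1 CPM, 39 without a trend, 38 under quantile normalization, 38 under median ratio rescaling, 38 with array weights, 32 with no filter, 27 in fits to the groups compared only, and 36 of 37 with a minimum of 2 CPM. Without the 5 libraries least like their group mates 36 were kept. With the neuron marker covariate 17 were kept and 20 lost, and 3 changed sign without passing. The 3 are Tat values over 5 backgrounds, which became 0.0082 for Gabrb1, 0.085 for Gabrb2 and 0.0225 for Gria1 (limma FDR 0.935, 0.232 and 0.761). Grin1, Grin2a and Grin2b, which are not among the 40 calls, became 0.13, 0.33 and 0.23 in the same comparison. 

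In the pooled comparisons, the interactions and the comparisons of Tat, Cocaine and Tat-Cocaine with Control, these counts of members called moved by over 1.5 times. The number of all genes called stands in brackets after each count or setting, and it often moved as well. For Tat over 5 backgrounds, 19 (8982) became 10 with the neuron covariate (6638). For Tat against Control, 4 (3382) became 7 with array weights (3853), 1 in the groups compared (1252), 7 with the replicate block (4253) and 16 without the 5 libraries (4607). For Tat-Cocaine against Control, 2 (2372) became 1 with a minimum of 2 CPM (2239) and 8 with the neuron covariate (3649). For cocaine added to Tat, 7 (723) became 15 with array weights (2204) and 14 without the 5 libraries (1353). For 4OI, 1 (3624) became 2 under median ratio rescaling (3549), in the groups compared (3165) and with the block (4218). It became 3 with array weights (6049), and 5 with the covariate (4455) and without the 5 libraries (4561). For Amlexanox, 1 (1270) became 2 under quantile normalization (1356) and with the block (1906). It became 3 with array weights (2198), 0 in the groups compared (543) and 9 with the covariate (2692). For Tazemetostat, 8 (1811) became 3 with no filter (1222), 15 with array weights (4310), and 1 in the groups compared (591) and with the covariate (300). It became 17 with the block (3430) and 4 without the 5 libraries (1052). For Senicapoc, 0 (184) became 5 with array weights (3433) and 1 without the 5 libraries (668). The 1 member of the 4OI interaction (79) became 0 with a pseudocount of 1 CPM (96), no filter (67), a minimum of 2 CPM (70) or quantile normalization (71). It also became 0 with median ratio rescaling (62), the groups compared (11) or the covariate (80), and 3 with array weights (1302). The 1 member of the Amlexanox interaction (292) became 0 in the groups compared (0) and 2 with the covariate (768). The causes were not tested.

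Without 1 library the counts ranged from 0 to 10 for Cocaine, 16 to 23 for Tat over 5 backgrounds, 2 to 4 for Tat against Control, 2 to 2 for Tat-Cocaine, 3 to 14 for cocaine added to Tat, 1 to 2 for 4OI, 0 to 2 for Amlexanox, 1 to 18 for Tazemetostat, 0 to 0 for Senicapoc, 0 to 1 for the 4OI interaction and 0 to 2 for the Amlexanox interaction. All genes called moved as well. They numbered 1381 where 14 members passed for cocaine added to Tat, and 3237 where 18 passed for Tazemetostat. With all libraries they numbered 723 and 1811. The log2 ratio of Gria1 to Gria2 ranged from 0.14 to 0.20 under Tat, -0.18 to -0.12 for cocaine added and -0.22 to -0.15 under Senicapoc, and that of Grin2a to Grin2b from 0.24 to 0.34 under Tazemetostat.

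Among all genes called, 52.9% were higher for Tat over 5 backgrounds and 40.8% under quantile normalization (members then 2 higher and 21 lower), 68.5% and 54.6% for Tat against Control, 51.5% and 63.3% for Amlexanox, and 18.8% and 33.3% for Cocaine. With the replicate block, in comparisons of a compound beside Tat whose library numbers did not pair, Tat-4OI against Tat went from 1 member higher to 5 higher and 1 lower, and Tat-Senicapoc against Tat from 0 to 2 higher. Depth limits Gabre, Gabrq and Gabrr2.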
